A study of Mus musculus with 18 samples.

Results

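Transcript levels of 10 genes of the Wnt pathway were followed across the intestinal tumours of Apc-mutant mice: Axin2, Nkd1, Notum, Wif1, Dkk2, Apcdd1, Sp5, Lef1, Tcf7 and Myc. They were taken by symbol from the table of 24062 genes as direct Wnt targets and secreted Wnt inhibitors of Apc-mutant epithelium, and each of the 10 passed the filter on low counts that kept 14271 genes. The RNA came from 18 tumours, 1 from each of 18 male C57BL/6 mice. Every mouse, controls included, carried the Min allele of Apc on 1 copy (ApcMin/+). The groups differed in Macrod2, which encodes an enzyme that takes ADP-ribose off proteins: Macrod2+/+ (wt, 6 tumours), Macrod2-/+ (het, 6 tumours) and Macrod2-/- (hom, 6 tumours). The source labels place het 4 in the small intestine and the other 17 tumours in the large intestine, so comparisons used 6 wt, 5 het and 6 hom tumours and het 4 is given by its values alone. A tumour is called by its genotype and mouse number. The sources used here give neither the ages of the mice nor the deleted part of Macrod2. A whole tumour was profiled, so fewer cells of a type and less RNA per cell cannot be told apart.

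In the canonical Wnt pathway, a secreted Wnt ligand stops a cytoplasmic complex built on APC and axin from destroying beta-catenin, which then enters the nucleus and activates genes together with factors of the TCF/LEF family. Loss of APC switches the same programme on without ligand, and in the intestinal crypt that programme keeps stem and progenitor cells dividing. Many of the genes it activates encode inhibitors of the pathway, so their transcripts serve as a readout of it.

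The libraries held 13529204 to 20857918 counts, and the 10 genes had 144 to 20347 counts in each. Macrod2 followed its labels, at 3.74 ± 0.605 CPM (counts scaled to library size, SD, n = 6) in wt, 2.20 ± 0.749 CPM (n = 5) in het and 0.158 ± 0.145 CPM (n = 6) in hom tumours. The 10 markers of epithelium were detected in every tumour, at a summed level of 11361 to 21654 CPM over the 17 large intestinal tumours. The tumours wt 1 and wt 2, labelled large intestine, stood with het 4 and apart from the other 15 in 7 of 10 markers of small intestinal epithelium. Gata4, a transcription factor of the small intestine, stood at 170.8 and 179.3 CPM in them and at 166.4 CPM in het 4, but at 0.282 to 47.3 CPM in the other 15. Lct, the lactase gene of the small intestine, stood at 924.4 CPM in wt 1, 1664 in wt 2 and 820.6 in het 4, against 0.303 to 45.6 CPM elsewhere. Fabp1, Apoa4 and Mttp were also higher in these 3 tumours than in any other, Fabp2, Apoa1 and Sis overlapped with the rest, and the other 2 markers were lower: Fabp6 stood at 2.06, 1.73 and 2.30 CPM in wt 1, wt 2 and het 4 against 11.2 to 1664 CPM elsewhere, and Onecut2 at 91.8, 125.7 and 125.8 against 163.8 to 287.8 CPM. Results are therefore given with and without wt 1 and wt 2.

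TCF/LEF factors bind DNA at the letters CTTTGA or CTTTGT in either orientation, and the promoter windows searched differed in how many copies they hold. Notum, Apcdd1 and Myc had no window and were not searched. RefSeq windows (GRCm38.p6) were at hand for 7 of the 10 genes, with 11 windows in all, and the 250 bases before each start were searched on both strands. Among 32817 windows of the same length, 13.8% held CTTTGA, 16.5% held CTTTGT and 0.777% held 3 or more copies of the pair. The windows below carry the contrast: Sp5 held 4 copies, 1 of them the longer CTTTGAT that 3.21% of windows hold, an internal start of Lef1 held 3, Dkk2 held 1, and Axin2, although a standard Wnt readout, held none in this stretch. They are printed 5′ to 3′ on the + strand, which is the strand of each gene, and capitals mark the matched letters (TCAAAG and ACAAAG are the same motifs on the other strand). The positions are chr2:70474673-70474922 for Sp5, chr3:131156044-131156293 for Lef1, chr3:132085042-132085291 for Dkk2 and chr11:108920099-108920348 for Axin2.
Sp5: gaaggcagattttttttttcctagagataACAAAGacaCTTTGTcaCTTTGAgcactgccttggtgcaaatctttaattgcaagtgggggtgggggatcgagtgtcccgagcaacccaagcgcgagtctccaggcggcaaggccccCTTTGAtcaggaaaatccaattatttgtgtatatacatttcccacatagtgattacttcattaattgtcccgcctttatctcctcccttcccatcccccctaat
Lef1, internal start: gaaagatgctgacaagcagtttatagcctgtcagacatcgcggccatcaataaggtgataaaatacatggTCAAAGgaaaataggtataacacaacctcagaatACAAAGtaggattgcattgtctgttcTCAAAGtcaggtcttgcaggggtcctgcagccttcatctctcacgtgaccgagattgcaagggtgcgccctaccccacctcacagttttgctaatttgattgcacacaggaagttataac
Dkk2: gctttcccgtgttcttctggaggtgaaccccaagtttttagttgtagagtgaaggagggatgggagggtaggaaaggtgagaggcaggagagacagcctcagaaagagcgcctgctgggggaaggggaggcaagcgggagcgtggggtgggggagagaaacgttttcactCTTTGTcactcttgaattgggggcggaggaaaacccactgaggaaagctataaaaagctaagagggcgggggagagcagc
Axin2: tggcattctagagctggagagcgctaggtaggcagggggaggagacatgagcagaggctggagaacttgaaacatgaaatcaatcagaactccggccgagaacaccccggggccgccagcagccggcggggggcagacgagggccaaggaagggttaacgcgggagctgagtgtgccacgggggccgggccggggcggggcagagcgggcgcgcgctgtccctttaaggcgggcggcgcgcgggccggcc
The windows of Nkd1, Wif1 and Tcf7 and the 3 other Lef1 windows held no copy. The Nkd1 window lies before a RefSeq start 6279 bases inside the gene as GENCODE places it, so the stretch before the gene's first base was not searched. By the same annotation the internal Lef1 start printed above lies 45823 bases inside its gene. Another Lef1 start lies 2320 bases inside, 1 Tcf7 start 419 bases and the Wif1 start 44 bases. A match describes letters and was not measured as a bound site in these tumours.

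Notum, Wif1 and Nkd1, all inhibitors of the pathway, stood among the most abundant transcripts of these tumours, and Lef1 was the lowest of the 10 genes. On the authors' RPKM scale (reads corrected for the length of the gene and the size of the library, which allows levels of different genes to be compared), Notum averaged 232.6 ± 48.2 RPKM (SD, n = 17), and only 1.18% of the 24062 genes had a higher mean. Wif1 followed at 222.7 ± 74.5 RPKM and Nkd1 at 184.8 ± 41.5 RPKM. These first 3 overlapped in their spread. Axin2 averaged 70.8 ± 20.3 RPKM, Sp5 59.1 ± 19.5, Tcf7 51.0 ± 9.04 and Myc 41.2 ± 10.4 RPKM, and neighbours in this order differed by less than the larger SD of each pair. Dkk2 averaged 14.6 ± 6.11 RPKM, Apcdd1 12.2 ± 4.98 and Lef1 7.38 ± 1.91 RPKM, with 33% of genes above Lef1. Notum's lowest tumour, at 147.9 RPKM, was above the highest Axin2 value of 103.9 RPKM.

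No difference between Macrod2 genotypes passed the test for any of the 10 genes. With edgeR's quasi-likelihood test and Benjamini-Hochberg adjustment over 14271 genes, 0 of 10 passed an adjusted p of 0.05 in hom versus wt, where 0.00701% of all genes did, 0 of 10 in het versus wt (0% of all genes) and 0 of 10 in hom versus het (0.00701%). At an unadjusted p under 0.05 the count was also 0 of 10 in each comparison, against 16.0% of all genes in hom versus wt, 2.85% in het versus wt and 2% in hom versus het. DESeq2 and limma-voom called 0 of the 10 in each comparison as well. At an unadjusted p under 0.05, each of these tools had 1 of the 10 in hom versus wt and 0 in the other comparisons. It was Sp5 by DESeq2 and Axin2 by limma-voom. With each tool, the number of all genes under that p in hom versus wt was close to that by edgeR. Against the 16.0% of all genes by edgeR, 1 of 10 was no excess. The estimates for hom versus wt were higher for 9 of 10 genes (45.7% of all genes were higher), with a median log2 fold change of 0.27 against -0.03 over all genes. In het versus wt 8 of 10 were higher (43.2% of all genes), with a median of 0.14 against -0.03, and in hom versus het 7 of 10 (48.2%), with a median of 0.09 against -0.01. The 3 comparisons share groups and are not independent of each other.

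That balance was lost on leaving out wt 1 and wt 2. Without them, and with 14392 genes tested, 4 of the 10 estimates were higher in hom versus wt, with a median of -0.03 against 0.01 over all genes, and 3 of 10 in het versus wt, with a median of -0.08. No gene of the 10 passed there either (0.00695% of all genes in hom versus wt and 0% in het versus wt), with edgeR adjusted p between 0.424 and 0.952 in hom versus wt and between 0.673 and 0.957 in het versus wt. At an unadjusted p under 0.05 the count was 0 of 10 in both, against 24.6% and 7.33% of all genes. The precision limits what these tests could show: the 95% intervals reached 0.31 to 0.89 log2 units to either side of the estimate in hom versus wt, and for 8 of the 10 genes they lay within a doubling or halving (1 log2 unit). The exceptions were Dkk2 and Apcdd1. A p above the threshold does not show that the levels were equal.

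**Figure D1:**
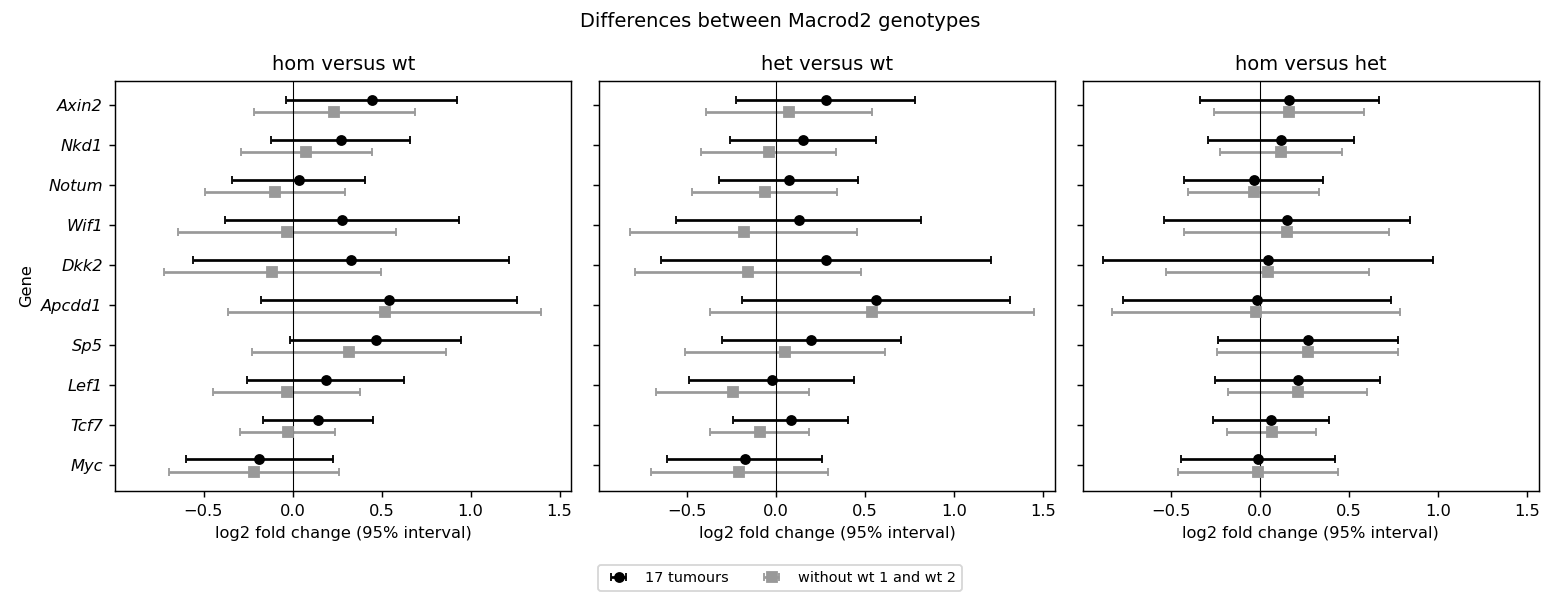
Log2 fold change of each gene in hom versus wt, het versus wt and hom versus het, with 95% intervals from edgeR (x axis, log2 units). Black circles use the 17 large intestinal tumours and grey squares leave out wt 1 and wt 2. All intervals cross 0, and in hom versus wt Dkk2 moves from 0.33 to -0.12 when the pair is left out.

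Among the inhibitors inside the cell, Axin2 and Nkd1 had their lowest mean in wt and their highest in hom tumours, without passing the test. Axin2 encodes a scaffold of the beta-catenin destruction complex (ENSMUSG00000000142, chr11:108920349-108950783, + strand, GENCODE M21 on GRCm38, the assembly also called mm10). In wt tumours it ran from 121.6 CPM in wt 2 over a median of 213.5 to 421 CPM in wt 3. The het tumours 1, 2, 3, 5 and 6 had 397.6, 352.4, 278.5, 307 and 203.8 CPM. In hom tumours it ran from 303.9 over a median of 335.4 to 442.3 CPM. The hom tumours lay close together, and wt 3 and wt 5 reached into their range, so the groups overlapped. The log2 fold change in hom versus wt was 0.44 (SE 0.23, 95% interval -0.04 to 0.92, edgeR adjusted p = 0.342), and 0.24 without wt 1 and wt 2. It was 0.28 in het versus wt and 0.17 in hom versus het. The highest wt tumour, wt 3, had 27.0% of its counts in the ribosomal RNA gene Rn45s, against at most 0.725% in the others, and without it the log2 fold change of Axin2 in hom versus wt was 0.69 (edgeR adjusted p = 0.137).

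Nkd1 encodes naked cuticle 1, which binds Dishevelled and dampens the Wnt signal (chr8:88521354-88594884, + strand). Its levels were 472.1 CPM in wt 2, the lowest wt tumour, 808.3 at the wt median and 940 in wt 3, the highest. In het 1, 2, 3, 5 and 6 it stood at 945.3, 1026, 846.2, 803.3 and 523.2 CPM. The hom tumours ran from 699.7 over a median of 918.2 to 1153 CPM. The 3 low tumours were wt 1 (524.4 CPM), wt 2 and het 6, and the remaining 14 tumours mixed across genotypes between 699.7 and 1153 CPM. Its log2 fold change was 0.27 in hom versus wt (SE 0.19, edgeR adjusted p = 0.453) and 0.08 without wt 1 and wt 2.

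Of the secreted and membrane inhibitors, Notum showed the smallest difference in hom versus wt and Wif1 the widest range within genotypes after Dkk2 and Apcdd1. Notum encodes a carboxylesterase that removes the lipid Wnt ligands need to bind their receptors (chr11:120653788-120661175, - strand). It ran from 304.7 CPM in wt 2 over a median of 456 to 585.3 in wt 6. In het tumours 1, 2, 3, 5 and 6 it stood at 587.5, 527.4, 467.8, 532.1 and 298.6 CPM, and in hom tumours at 379.3 to 629.7 with a median of 440.7 CPM. The ranges lay almost on top of each other, with a log2 fold change of 0.04 in hom versus wt (95% interval -0.34 to 0.41, edgeR adjusted p = 0.933) and of -0.10 without wt 1 and wt 2. Exons of Notum share 918 bases with Notumos and Myadml2os on the opposite strand, and the sources used here do not say whether reads were counted by strand.

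Wif1 encodes Wnt inhibitory factor 1, which binds Wnt ligands outside the cell (chr10:121033960-121100650, + strand). It ran from 203.4 CPM in wt 2 over a median of 467.4 to 773.5 in wt 6, the highest of all 18 tumours. Het 1, 2, 3, 5 and 6 held 610.3, 562.5, 550.9, 585 and 163.3 CPM. The hom tumours ran from 416.1 over a median of 549.5 to 690.4 CPM. Het 6 was the lowest tumour of all and stood apart from the 4 other het tumours, which spanned 550.9 to 610.3 CPM. The log2 fold change was 0.28 in hom versus wt (SE 0.31, edgeR adjusted p = 0.655) and -0.03 without wt 1 and wt 2, and with 1 tumour left out it ran from 0.14 (wt 2) to 0.51 (wt 6).

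Dkk2 encodes a dickkopf protein that binds the LRP co-receptors (chr3:132085292-132180304, + strand). Its 6 wt tumours split into wt 1 and wt 2 at 11.88 and 12.02 CPM and 4 others at 53.6 to 73.8 CPM. The values of het 1, 2, 3, 5 and 6 were 91.5, 60.7, 46.7, 64.0 and 23.1 CPM. The hom tumours ran from 44.4 over a median of 54.3 to 85.5 CPM. The 4 other wt tumours lay among the het and hom tumours and the pair lay below them all, with an SD of log2 CPM of 1.25 in wt, 0.74 in het and 0.37 in hom. Its log2 fold change was 0.33 in hom versus wt (SE 0.42, 95% interval -0.56 to 1.21, edgeR adjusted p = 0.698) and -0.12 without wt 1 and wt 2, and with 1 tumour left out it ran from 0.13 (wt 1) to 0.52 (wt 4).

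Apcdd1 encodes a membrane protein that binds Wnt and LRP5 and blocks signalling. Its estimates against wt were the largest of the 10 genes, without passing the test. It ran from 10.5 CPM in wt 4 over a median of 24.2 to 43.0 in wt 3. The het tumours 1, 2, 3, 5 and 6 had 60.2, 54.4, 30.2, 39.5 and 9.99 CPM, and the hom tumours ran from 28.6 over a median of 38.2 to 49.8 CPM. The lowest values came from wt 4 and het 6, and 4 of the 6 wt tumours lay below the lowest hom tumour while wt 3 and wt 6 overlapped with them. The log2 fold change was 0.54 in hom versus wt (SE 0.34, edgeR adjusted p = 0.424) and 0.56 in het versus wt (SE 0.36, adjusted p = 0.999). It was 0.52 and 0.54 without wt 1 and wt 2, so leaving them out moved Apcdd1 little. The mean log2 CPM of the macrophage and colonic surface epithelium lists moved with that of Apcdd1. Over 17 tumours r was 0.72 and 0.73, and over the 15 without wt 1 and wt 2 it was 0.81 and 0.83. For the fibroblast list r was 0.59 and 0.58. Spearman's rho over 17 tumours was 0.55 for macrophages, 0.53 for colonic surface and 0.63 for fibroblasts. Not every macrophage gene followed: Cd14 was highest in wt 4 and het 6, at 56.0 and 46.3 CPM. The macrophage list (5 of 6 genes measured) summed to 49.0 to 87.8 CPM in wt, 67.7 to 92.2 in het and 65.1 to 81.9 in hom tumours. The colonic surface list (6 of 6 measured) summed to 61.7 to 462.4 CPM in wt, 163.2 to 486.7 in het and 300.9 to 702.9 in hom tumours. Their part in the Apcdd1 values was not tested.

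**Figure D2:**
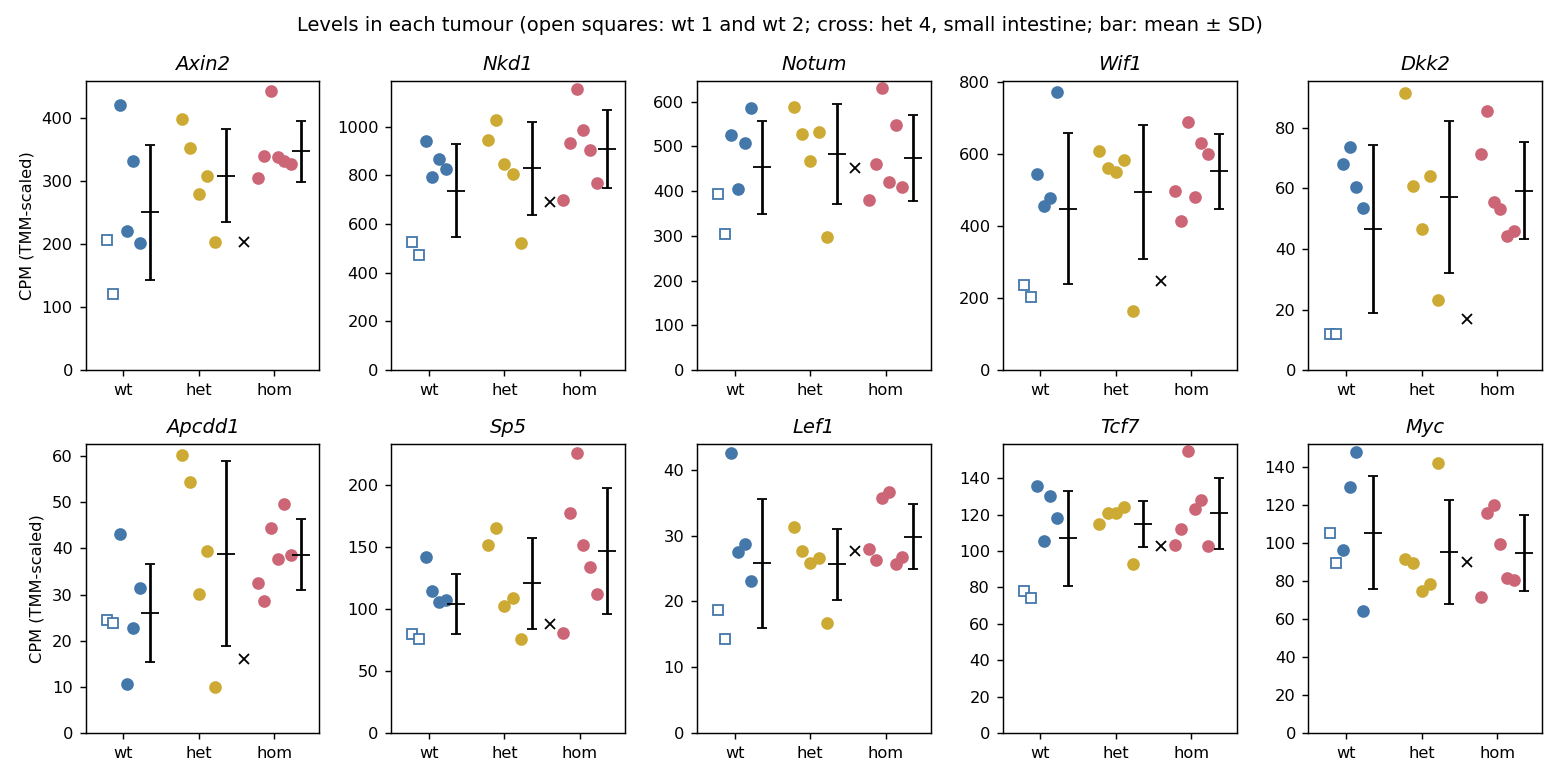
Level of each gene in each tumour (y axis, CPM from 0) for wt (6), het (5) and hom (6) large intestinal tumours, with the mean ± SD as black bars. Open squares are wt 1 and wt 2 and the cross is het 4 from the small intestine. The groups overlap for all 10 genes, and wt 1 and wt 2 are the lowest squares for Dkk2, at 11.88 and 12.02 CPM.

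Of the transcription factors, Sp5 had the widest spread among hom tumours. Sp5 is a zinc finger factor of the Sp family that Wnt signalling induces and that in turn lowers other Wnt targets (chr2:70474923-70477729, + strand, directly after the promoter printed above). It ran from 76.0 CPM in wt 2 over a median of 106.1 to 141.6 in wt 3. In het 1, 2, 3, 5 and 6 it stood at 151.1, 165.2, 102.6, 108.8 and 75.8 CPM. The hom tumours ran from 80.6 CPM in hom 1 over a median of 142.5 to 225.5 in hom 3, and 3 of them lay above every wt tumour. Its log2 fold change in hom versus wt was 0.47 (SE 0.23, 95% interval -0.02 to 0.95, edgeR adjusted p = 0.326), and 0.32 without wt 1 and wt 2.

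Lef1 and Tcf7 encode TCF/LEF factors that are also targets of the pathway. Lef1 (chr3:131110471-131224356, + strand) ran from 14.3 CPM in wt 2 over a median of 25.3 to 42.6 in wt 3. Het 1, 2, 3, 5 and 6 held 31.4, 27.7, 25.8, 26.7 and 16.7 CPM, and the hom tumours ran from 25.7 over a median of 27.4 to 36.6 CPM. All 6 hom and 5 het tumours fell inside the wt range, and the log2 fold change was 0.19 in hom versus wt (edgeR adjusted p = 0.656) and -0.03 in het versus wt. Without wt 1 and wt 2 these were -0.03 and -0.24. Leaving out 1 tumour at a time, the hom versus wt value of Lef1 ran from 0.079 without wt 2 to 0.42 without wt 3, the tumour rich in Rn45s. Exons of Lef1 share 1208 bases with Gm43352 on the opposite strand, and those of Axin2 share 209 bases with Gm11670.

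Tcf7 (chr11:52252371-52283014, - strand) varied least of the 10 genes. It ran from 74.3 CPM in wt 2 over a median of 111.9 to 135.9 in wt 3. The values of het 1, 2, 3, 5 and 6 were 114.6, 120.8, 120.9, 124.4 and 92.8 CPM, and the hom tumours ran from 102.9 over a median of 117.5 to 154.9 CPM. Its log2 fold change was 0.14 in hom versus wt (95% interval -0.16 to 0.45, edgeR adjusted p = 0.619) and -0.03 without wt 1 and wt 2, and with 1 tumour left out it ran from 0.069 (hom 3) to 0.26 (wt 3). Lef1 and Tcf7 are also expressed in T cells. The 10 T cell markers were all measured and summed to 13.5 to 32.8 CPM in wt, 12.2 to 19.0 in het and 12.8 to 22.9 CPM in hom tumours, with Cd3e at 0 in wt 4 and at most 2.56 CPM. The highest sum was that of wt 2, the tumour with the lowest Lef1 and Tcf7, and the part of T cells in these values was not tested.

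Myc, the growth-promoting factor through which much of the Apc-loss phenotype of the intestine runs (chr15:61985391-61990374, + strand), was the 1 gene with a lower estimate in hom versus wt. It ran from 64.2 CPM in wt 6 over a median of 100.9 to 148.3 in wt 5. The het tumours 1, 2, 3, 5 and 6 had 91.6, 89.8, 74.9, 78.3 and 142.5 CPM, and the hom tumours ran from 71.6 over a median of 90.7 to 120 CPM. All hom and het values fell between the lowest and highest wt tumour. The log2 fold change was -0.19 in hom versus wt (SE 0.20, 95% interval -0.60 to 0.23, edgeR adjusted p = 0.629), -0.18 in het versus wt and -0.01 in hom versus het. In hom versus wt it was -0.22 without wt 1 and wt 2 and -0.041 without wt 5, the highest Myc tumour.

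Single tumours differed widely. Over the 17 large intestinal tumours the highest level was 2.09 times the lowest for Tcf7 and 7.70 times for Dkk2, and the other 8 genes lay between. Against the median of 15 tumours (the large intestinal set without wt 1 and wt 2), the 10 genes had a median ratio of 0.648 in wt 1, 0.572 in wt 2 and 0.784 in het 4. Dkk2 was the strongest case, at 0.196, 0.199 and 0.279 of that median, and the 1 gene of the 10 that was below all 15 tumours in each of the 3 (1.42% of all genes were). Wt 1 lay below all 15 in 2 of the 10 genes (7.30% of all genes), wt 2 in 5 (15.3%) and het 4 in 1 (7.40%). Wif1 stood at 0.430, 0.369 and 0.450, Axin2 at 0.622, 0.367 and 0.614. Myc went the other way in wt 1, at 1.15, and stood at 0.9751 in wt 2 and 0.986 in het 4. In het 4, the tumour labelled small intestine, Notum stood at 0.889, Tcf7 at 0.852 and Lef1 at 1.01, each above both wt 1 and wt 2. Apcdd1, at 0.427, was below both, and Axin2 and Myc lay between them. Summed markers of small intestinal epithelium were 33137 CPM in wt 1, 46839 in wt 2 and 21751 in het 4, and 351.2 to 22408 CPM in the other 15, with hom 3 at the upper end. The epithelial sum of 16339 CPM in wt 1 and 21654 in wt 2 lay within and above the range of 11361 to 17526 CPM in the other 15, while the part of the small intestinal epithelium in the low Wnt genes was not tested.

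**Figure D3:**
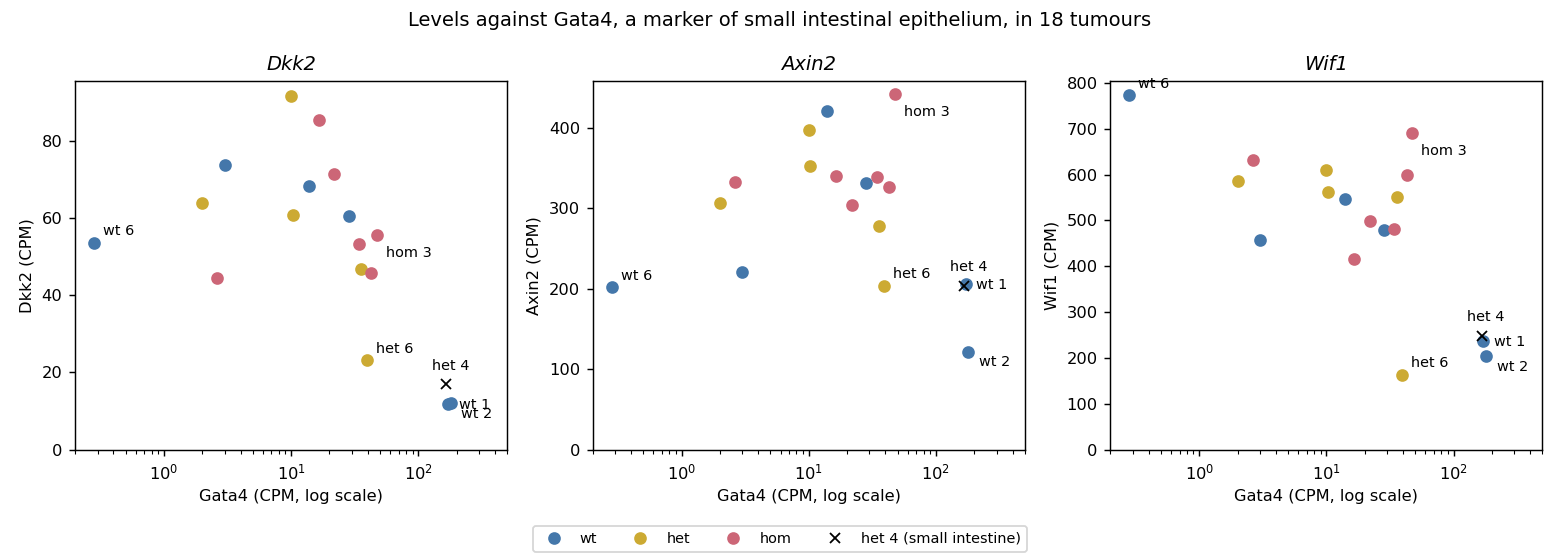
Levels of Dkk2, Axin2 and Wif1 (y axes, CPM) against Gata4 (x axis, CPM, log scale) in 18 tumours coloured by genotype, with het 4 as a cross. For Dkk2 the 3 tumours with Gata4 at 166.4 to 179.3 CPM are the lowest, at 11.88 to 16.9 CPM, while het 6 is low in Wif1 with Gata4 at 39.1 CPM.

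Another low tumour had no such level of Gata4. Het 6 lay below the 14 other large intestinal tumours (wt 1 and wt 2 aside) in 8 of 10 genes, where 6.45% of all genes did, and its median ratio was 0.606. Its exceptions were Axin2, at 203.8 CPM just above 202 in wt 6, and Myc, at 142.5 CPM the highest het value. Apcdd1 stood at 0.265, Wif1 at 0.296 and Dkk2 at 0.382 of the median, and Tcf7 at 0.768. Its Gata4 of 39.1 CPM was inside the range of the other tumours and its epithelial sum was 16601 CPM. Its T cell sum of 12.2 CPM was the lowest of the large intestinal tumours, and its Macrod2 level of 3.48 CPM was the highest het value, inside the wt range of 2.93 to 4.55 CPM. Its sum of 6 crypt stem cell markers, 787.3 CPM, was the highest het value, though Lgr5 of that list stood at 142.4 CPM against 210 in het 1. Of other Wnt targets, Ephb3 was at 234.5 CPM and Rnf43 at 207.3 CPM, its highest and lowest large intestinal het values. Over 15 tumours the crypt list had r of -0.27 (Dkk2) to -0.64 (Nkd1) with the genes other than Myc. Over 17 tumours r ran from -0.29 (Apcdd1) to 0.25 (Dkk2). Whether these values bear on the low Wnt genes was not tested.

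At the high end stood hom 3, which exceeded the other 16 large intestinal tumours in 5 of 10 genes, Axin2, Nkd1, Notum, Sp5 and Tcf7, where 12.4% of all genes did. Its median ratio was 1.29, with Sp5 at 1.97 and Dkk2, at 0.918, the 1 gene below the median. The crypt stem cell sum of hom 3, 324.7 CPM, was the lowest hom value. Of other Wnt targets, Ephb3 stood at 100.5 CPM in it, its lowest hom value, and Rnf43 at 287 CPM, its highest. Het 1 was highest for Dkk2 and Apcdd1 (3.18% of all genes were highest in it), wt 3 for Lef1, wt 5 for Myc and wt 6 for Wif1 (3.15% of all genes were highest in wt 6). Wt 6 was also below the 14 other tumours in Axin2 and Myc, where 3.65% of all genes were. In wt 6 Wif1 was at 1.404 of the median while Axin2 was at 0.610 and Myc at 0.700, so high Wif1 did not go with high Axin2 there.

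**Figure D4:**
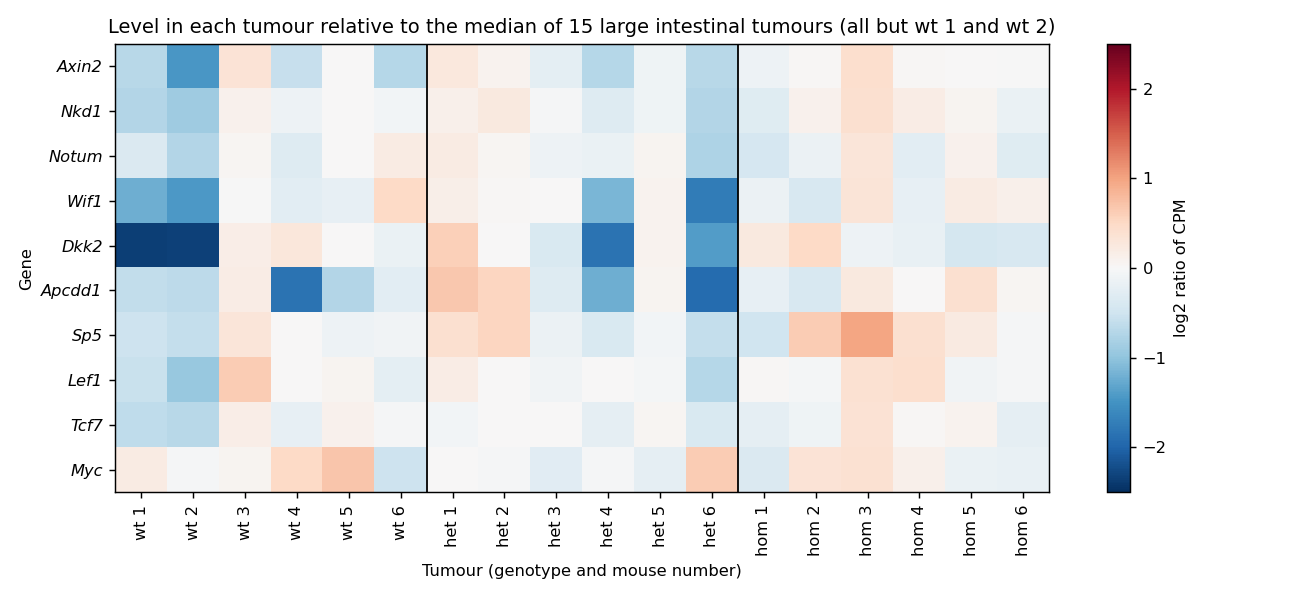
Level of each gene (rows) in each of 18 tumours (columns, by genotype and mouse number) as the log2 ratio of CPM to the median of 15 large intestinal tumours, red above and blue below it. The columns of wt 1, wt 2 and het 6 are blue in most rows, the column of hom 3 is mostly red, and the row of Myc differs from the rest.

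Dkk2, Apcdd1 and Wif1 had the widest spread within genotypes of the 10 genes. The SD of log2 CPM within genotypes was 0.87 for Dkk2, 0.70 for Apcdd1 and 0.64 for Wif1, at the 92.1, 86.4 and 83.5 percentile of all tested genes. It was 0.28 for Tcf7, at the 38.2 percentile, and between 0.34 and 0.44 for the other 6, with a median of 0.33 over all genes. Without wt 1 and wt 2 that of Dkk2 was 0.50 and that of Tcf7 0.19, while that of Apcdd1 was 0.76.

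Across the 17 large intestinal tumours, 9 of the 10 genes varied together and Myc did not follow them. Pearson's r of log2 CPM over the 36 pairs without Myc ran from 0.36 for Dkk2 with Apcdd1 to 0.92 for Nkd1 with Tcf7, with a median of 0.75, and 34 pairs were above 0.5. With genotype means taken out the median was 0.72, and over the 15 tumours without wt 1 and wt 2 it was 0.63, with 28 pairs above 0.5. Spearman's rho had a median of 0.62. The 9 pairs with Myc ran from -0.55 with Apcdd1 to 0.12 with Sp5. These values are descriptions over 17 tumours that share library scaling and a few low tumours, and the median r of each gene with all tested genes lay between -0.02 and 0.02. Many genes outside the 10 followed as closely. By r, Notum ranked 563 among 14270 genes for Axin2, and Dkk2 ranked 3957 for Apcdd1. Of the other members, 6 were in the top 100 for Nkd1, 1 for Sp5 and 0 for Apcdd1 and Myc.

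Nkd1 was closest to the rest, with a median r of 0.84 with the other 9 genes, and it ranked first among all genes for Tcf7. Its pair with Sp5 hardly depended on wt 1 and wt 2, with r of 0.90 over 17 and 0.90 over 15 tumours. Axin2 and Lef1 followed each other with r of 0.88, and Notum and Wif1, which act outside the cell, with 0.85. Apcdd1 was the loosest of the 9, with a median of 0.57.

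**Figure D5:**
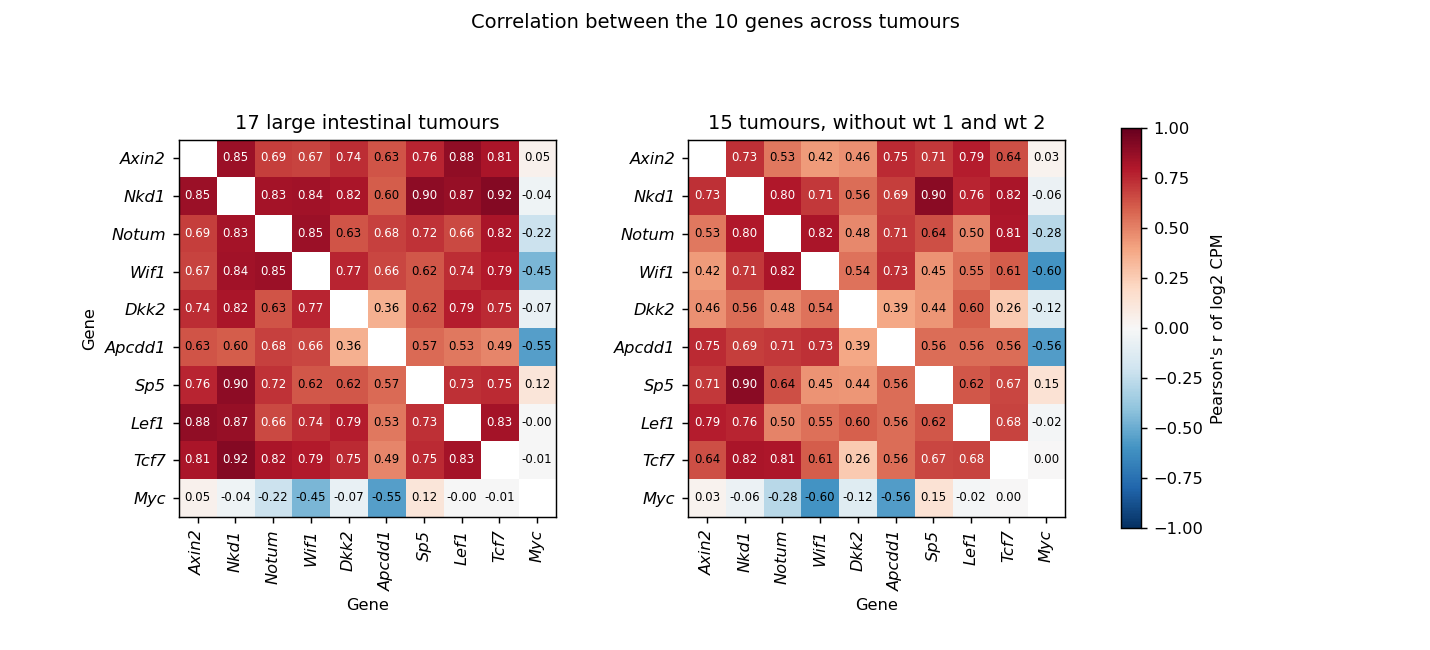
Pearson's r of log2 CPM between each pair of genes over 17 large intestinal tumours (left) and 15 without wt 1 and wt 2 (right), from blue (negative) to red (positive). The first 9 genes form a red block from 0.36 to 0.92 on the left, and the row of Myc runs from -0.55 to 0.12.

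For each of the 10 genes, genes with the most similar pattern over 17 tumours were taken by r. Of 12636 genes with a mean log2 CPM of at least 0, those with the highest r to Axin2 were Cep112 (r = 0.95), Rnf43 (0.93) and Rai1 (0.92). Rnf43 encodes a ubiquitin ligase that removes Frizzled receptors and is itself a Wnt target. Cep112 is the next protein-coding gene to Axin2, with 59.7 kb between them, and had 2.42 to 9.04 CPM in these tumours. For Dkk2 they were Csrnp2 (0.94), Aqp9 (0.94) and Trabd2b (0.91), the last a membrane protease that inactivates Wnt ligands. Without wt 1 and wt 2 the r of these 3 was 0.81, 0.79 and 0.65.

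For Nkd1 the closest included Zfp316 (0.95) and the retinoic acid receptor gene Rarb (0.93). Lef1 had Zfp532 (0.93) and Axin2 (0.88) among its closest, and Tcf7 had Nkd1 (0.92), Zfp316 (0.89) and Pbx3 (0.89), so the lists of Nkd1 and Tcf7 share Zfp316. Notum had Ccdc136, Wdsub1 and Ankrd29 (0.87 each), Wif1 had Itpr2 (0.92), Gulo (0.92) and Fgfrl1 (0.90), and Sp5 had Vamp2 (0.93), Wdr6 (0.92) and Ypel3 (0.92). Apcdd1 had the growth factor gene Pdgfc (0.94), the cathepsin gene Ctsf (0.94) and the cholesterol exporter gene Abca1 (0.93). Closest to Myc were Mtpap (0.93), the mitochondrial poly(A) polymerase, Timm44 (0.88), of the mitochondrial import machinery, and Utp14a (0.87), which serves ribosome assembly. Its values over 15 tumours were 0.94, 0.89 and 0.87. Over the marker lists, Myc had r of -0.72 with macrophages, -0.59 with T cells and -0.52 with fibroblasts (-0.75, -0.70 and -0.56 over 15 tumours). Not every gene of a list followed: the macrophage gene Cd14 was highest in wt 4 and het 6, where Myc was high, at 129.9 and 142.5 CPM. The part of these cells in the Myc values was not tested.

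In the rest of the pathway, 0 genes of 8 lists passed the adjusted threshold in any comparison, with or without wt 1 and wt 2. Counts at an unadjusted p under 0.05 in hom versus wt are to be read against 16.0% of all genes. Those without wt 1 and wt 2 are to be read against 24.6%. Of the Wnt ligands and their secretion factors, 14 of 21 were tested, and in hom versus wt an unadjusted p under 0.05 was reached by 1 with a higher and 1 with a lower level. Wls, the carrier of Wnt ligands to the cell surface, had a log2 fold change of 0.38 and Wnt4 of -1.36 (edgeR adjusted p = 0.261 and 0.285). With wt 1 and wt 2 left out, that of Wnt4 was -0.05 and that of Wls 0.24. Of 16 receptors, all tested, 13 estimates were higher and 3 lower, with a median of 0.22 (-0.03 over all genes). Leaving out wt 1 and wt 2, the split was 12 and 4, with a median of 0.21. Ptk7 had 0.35, Fzd6 0.34 and Fzd9 -0.67, and 0.22, 0.40 and -0.86 without the pair. Fzd10 resembled Dkk2 in wt 1, wt 2 and het 4, at 5.84, 5.90 and 6.12 RPKM against a median of 17.5 over 17 tumours; it was singled out after its values were seen. The R-spondin system (7 of 9 tested) had 4 estimates higher and 3 lower, with Znrf3 at 0.35 and Rnf43 at 0.20, the latter 0.070 without wt 1 and wt 2.

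Among other Wnt inhibitors, 19 of 28 were tested, and an unadjusted p under 0.05 was reached by 1 with a higher and 3 with a lower level (3 and 3 without wt 1 and wt 2). Kremen1, which clears LRP6 together with dickkopf proteins, had 0.54, Dkkl1 -1.37 and the corepressor relative Tle6 -0.89 (edgeR adjusted p = 0.258, 0.258 and 0.261). The relatives of the 10 genes differed in level: the median over 17 tumours was 59.1 RPKM for Dkk3, 0 for Dkk1 and 0.038 for Dkk4, and 0.171 for Nkd2, the paralogue of Nkd1. The destruction complex (12 of 13 tested) had 10 estimates higher and 2 lower (8 and 4 without the pair), with Axin1 at 0.33. Among TCF factors and coactivators (9 of 10 tested) 7 were higher and 2 lower, with Tcf7l1 at 0.70 and Pygo2 at -0.22. Tcf7l2, the main TCF of the crypt, had a median of 8.50 RPKM, near Lef1 at 7.25.

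The other intestinal Wnt targets (27 of 30 tested) had 15 estimates higher and 12 lower in hom versus wt, and an unadjusted p under 0.05 was reached by 1 with a higher and 5 with a lower level (14 and 13 estimates, with 1 and 6, without the pair). Those with the smallest p were lower: Spp1, encoding osteopontin, had -1.24, the AP-1 gene Fosl1 -0.89 and the ephrin receptor gene Ephb3 -0.45 (edgeR adjusted p = 0.222, 0.258 and 0.261). Partners and targets of Myc (23 of 23 tested) had 6 estimates higher and 17 lower, with a median of -0.29 against -0.03 over all genes, and an unadjusted p under 0.05 was reached by 1 upward and 7 downward (1 and 9 without the pair). Odc1, which starts polyamine synthesis, had -0.66, Srm, the next enzyme of that route, -0.74 and the RNA polymerase I gene Polr1b -0.37 (edgeR adjusted p = 0.258, 0.261 and 0.276). In het versus wt 7 estimates of the Myc list were higher and 16 lower, and in hom versus het 6 and 17, with no unadjusted p under 0.05 in either (0 of 23). Without wt 1 and wt 2 the split in hom versus wt was again 6 and 17, with a median of -0.37 against 0.01 over all genes. In the other lists, unadjusted p under 0.05 in het versus wt was reached by 3 of 14 ligand genes, 1 of 16 receptors, 1 of 19 other inhibitors and 2 of 27 other targets, where 2.85% of all genes reached it. In hom versus het it was reached by 1 of 19 other inhibitors, 1 of 9 TCF factors and coactivators and 2 of 27 other targets, against 2% of all genes.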

How the data were processed

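Tumours were resected at autopsy and total RNA was extracted, per the labels' protocols, which name a stranded total RNA kit while the molecule label says polyA RNA. The deposited counts are whole-number reads per gene, made by the authors with Trimmomatic, TopHat and featureCounts (Subread 1.4.5-p1) on mm10, per the submitters' processing notes. The deposited RPKM values are scaled by gene length, library size and TMM factors, per the file headers and values. The sources used here give neither the options nor the strand setting.

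Groups came from the titles and source labels. Counts of the 17 large intestinal tumours were fitted in edgeR 4.0.16 (R 4.3.3; filterByExpr, TMM, robust quasi-likelihood, genotype as the 1 factor), with Benjamini-Hochberg adjustment over 14271 genes. CPM were scaled over 18 libraries and log2 CPM used a prior count of 2. Alternatives used DESeq2 1.42.0, limma 3.58.1 (voom), other scalings and left-out tumours. The fit was tested on simulated counts: in hom versus wt it recovered 58.2% of genes changed 2-fold and 16.4% of those changed 1.5-fold. The titles number mice within a genotype, and p-values measure the spread between these tumours. The closest 2 libraries differed by 20.3 in chi-square per degree of freedom, so none was a repeat.

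The 10 genes, the lists, the choice of leaving out wt 1 and wt 2 and the tests were chosen with earlier results of these data known. All 10 genes are named, with the 3 most similar genes of each (predicted genes left out, and 1 gene not reported here) and up to 3 of smallest p per list, here mostly in hom versus wt. Outside this rule, Fzd10, Dkk1, Dkk3, Dkk4, Nkd2 and Tcf7l2 were named after their values were seen.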

Additional observations from a re-analysis of the deposited data

Results flagged for a closer look

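Of 30 groups of values (10 genes in 3 genotypes), 3 held a tumour far from the others by Dixon's test at the 95% level, which chance gives in about 1 in 20 groups. Axin2 in hom 3 was 442.26 CPM, and the next hom tumour, hom 2, had 339.7 CPM (gap over range 0.704, critical value 0.625). Wif1 in het 6 was 163.3 CPM, and the next het tumour, het 3, had 550.9 CPM (0.922, critical value 0.710). Tcf7 in het 6 was 92.778 CPM, and the next, het 1, had 114.6 CPM (0.720, critical value 0.710). Both het values come from the same tumour.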

How the results depend on the processing

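None of the 10 genes passed in any of 27 alternatives per comparison, with adjusted p from 0.137 in hom versus wt (Axin2, leaving out wt 3) up to 1. Leaving out wt 3 gave 4 of the 10 an unadjusted p under 0.05 in hom versus wt, the most of any alternative. They were Axin2, Apcdd1, Sp5 and Lef1. The share of all genes under that p without wt 3 is not given here, so the 4 cannot be weighed against it. With all wt tumours kept that share was 16.0%, and without wt 1 and wt 2 it was 24.6%. Of 810 estimates 50 changed sign, and the cause was not tested. Leaving out wt 1 and wt 2 together turned 10: in hom versus wt Notum to -0.10, Wif1 -0.031, Dkk2 -0.12, Lef1 -0.033 and Tcf7 -0.027, in het versus wt Nkd1 to -0.043, Notum -0.064, Wif1 -0.18, Dkk2 -0.16 and Tcf7 -0.093. Lef1 in het versus wt became 0.044 with limma-voom, 0.0035 with upper quartile factors, 0.0022 with only the 2 genotypes compared, 0.0050 with all 18 tumours and 0.061 with the replicate block. Apcdd1 in hom versus het became 0.19, 0.13 and 0.18 with limma-voom, 18 tumours and the block, and Myc 0.00055 and 0.0033 with limma-voom and 18 tumours. Leaving out 1 tumour at a time, log2 fold changes ran from -0.053 to 0.14 for Notum in hom versus wt. In het versus wt they ran from -0.0048 to 0.23 for Notum, from -0.0075 to 0.36 for Wif1 and from -0.13 to 0.19 for Lef1. In hom versus het they ran from -0.17 to 0.047 for Notum, -0.27 to 0.19 for Apcdd1, -0.16 to 0.28 for Dkk2, -0.083 to 0.17 for Myc, -0.012 to 0.11 for Tcf7, -0.012 to 0.21 for Nkd1 and -0.076 to 0.24 for Wif1. Of all genes in hom versus wt, 1 passed, with 22 by DESeq2, 2 with the replicate block and 1 to 2 with 1 tumour left out. In hom versus het 1 passed, with 0 for only 2 genotypes and 0 with the block. Tumours with equal mouse numbers were no more alike than others. Their r of deviations was -0.45 to 0.33 over 16 pairs (median -0.029), against -0.575 to 0.62 over 80 pairs of unequal number (median 0.003). A litter or batch shared by equal numbers is not named in the labels. The block called none of the 10 genes. Among 45 gene pairs the median r was 0.69, and 0.54 to 0.71 under its alternatives.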
